A study of Drosophila melanogaster with 4 samples.

Results

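The amino acid transporter genes of the Drosophila larva were followed in RNA of whole second-instar animals. They were taken by name from the table of normalized counts: JhI-21, mnd, slif, path, CD98hc, gb and NAAT1, which makes 7 of 15340 genes. An eighth name, sbm, was not in the table as such. Its annotated synonym, CG9413, was, and its values are given separately. The larvae were 48 h old. The mutants were Xbp1 ex79 -/-, homozygous for an imprecise excision in the gene of Xbp1, the transcription factor that IRE1 activates by mRNA splicing. The authors describe a deletion around the start codon that takes in the regions for the DNA-binding domain and the splice site. The Xbp1 +/+ controls were a precise excision line derived from the same parent line, Xbp1 CB02061. Each genotype gave 2 independent RNA extractions, labelled mutant and WT in the deposited samples, and no source used here says how many larvae went into each. The replication behind the p values below is therefore between these extractions only, and the tests also draw on the spread of other genes.

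Amino acids enter fly cells through several families of membrane carriers. In one family, a catalytic light chain is bound to the glycoprotein heavy chain CD98hc, which carries it to the plasma membrane. The light chains trade an amino acid inside the cell for another outside it. Other carriers, among them slif and its cationic relatives, path and NAAT1, work without a heavy chain. In larvae the fat body reads the supply of amino acids through slif and the TORC1 kinase complex, and so ties the growth of the animal to its food. In mammals several genes of this kind are induced by ATF4, the transcription factor (crc in flies) downstream of the ER stress kinase PERK (PEK in flies).

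Gene-assigned reads numbered 37122025 and 38601267 in mutant-labelled libraries, against 34947910 and 31416284 in WT-labelled libraries. CR41602, a ribosomal RNA pseudogene, took between 37.2% and 43.7% of them. In each library 3 reads corresponded to a normalized count between 2.69 and 3.62. Xbp1 itself had normalized counts of 6087 and 5953 in mutant-labelled libraries and 5521 and 7378 in WT-labelled libraries. The groups overlapped, although the authors describe the mutant allele as lacking part of the gene, and the reason was not tested. A count over the whole gene thus gave no check of the labels, and directions are given between libraries as they are labelled. Groups were compared with limma on log2(normalized count + 1) over 10500 genes that averaged 10 normalized counts or more. A fold change on this scale is slightly understated for low genes. Over all genes tested the median log2 fold change was -0.03. Adjusted p values, here and below, follow Benjamini and Hochberg over all genes tested, or for DESeq2 over the genes that it kept. At an adjusted p of 0.05 limma called 1 gene (0.00952%) higher and 0 genes (0%) lower in mutant-labelled libraries. At an unadjusted p under 0.05 it counted 723 higher (6.89%) and 760 lower (7.24%). DESeq2 on the recovered reads called 179 higher (2.02%) and 147 lower (1.66%), as shares of the 8871 genes that it kept. The edgeR test called 1 higher (0.00952%) and 0 lower (0%), with 725 higher (6.9%) and 718 lower (6.84%) at an unadjusted p under 0.05.

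Of the 7 transporter genes, 6 passed the filter on low counts and NAAT1 did not. For slif, path and mnd both libraries labelled mutant lay above both libraries labelled WT, which was the case for 26.2% of all genes tested. For JhI-21, CD98hc and gb the groups overlapped. None of the 6 was lower in both libraries labelled mutant, against 27.9% of all genes tested. In limma 0 of the 6 were called after adjustment. At an unadjusted limma p under 0.05, 2 of the 6, slif and path, were higher, against 6.89% of all genes tested. After adjustment DESeq2 called path alone higher, against 2.02% of the genes that it kept, and edgeR called none. Across the 6 the median log2 fold change was 0.60, with 5 values above 0 and 1 below it, and without mutant 1 the median was 0.30.

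**Figure D1:**
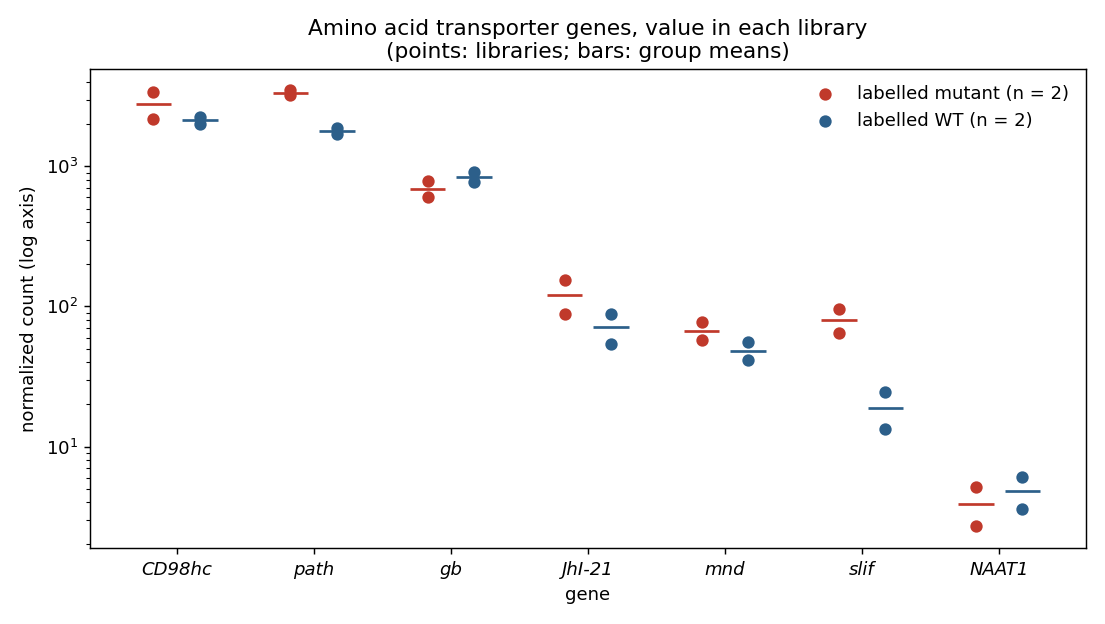
Normalized count (log axis) of each of the 7 amino acid transporter genes in every library, with the libraries labelled mutant in red and those labelled WT in blue (2 each) and bars at the group means. The points of slif and path separate, with slif at 64.5 and 95.3 in mutant-labelled libraries and 24.3 and 13.3 in WT-labelled libraries, while those of NAAT1 lie near the level of 3 reads in all libraries.

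The gene slif, or slimfast, encodes a cationic amino acid transporter that imports arginine and lysine. In the dm6 assembly it occupies 22881045 to 22893821 on 3L, plus strand, and its exons cover 3140 bp (FBgn0037203). Its normalized counts were 64.5 and 95.3 in mutant-labelled libraries and 24.3 and 13.3 in WT-labelled libraries. The lower of the libraries labelled mutant was thus well above the higher of those labelled WT. The values rest on 72 and 93 reads in mutant-labelled libraries and on 27 and 11 reads in WT-labelled libraries. The mean of slif was 79.9 ± 21.8 in mutant-labelled libraries and 18.8 ± 7.8 in WT-labelled libraries (SD, n = 2 each). On the log2 scale slif differed by 2.06 (SE 0.50, 95% interval 0.79 to 3.34, limma adjusted p = 0.347). The unadjusted p from limma, 0.00863, ranked 249 among the 10500 genes. DESeq2 on the recovered reads gave an adjusted p of 0.0858, within a range of 0.0858 to 0.528 over the other pseudocounts, filters, scalings and tests tried with all 4 libraries, the crossed pairing left out. Leaving out 1 library at a time moved the log2 fold change between 1.65 and 2.48.

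The gene path, or pathetic, encodes a transporter of the proton-assisted SLC36 family that promotes growth together with the TOR kinase. It lies on the minus strand of 3L from 9494555 to 9505328, with 3195 bp of exon (FBgn0036007). Its normalized counts were 3212 and 3489 in mutant-labelled libraries, against 1868 and 1708 in WT-labelled libraries. Libraries of 1 label differed little from each other, and the groups were far apart. The mean of path was 3350 ± 196 in mutant-labelled libraries and 1788 ± 113 in WT-labelled libraries (SD, n = 2 each), a ratio of 1.87. On the log2 scale path differed by 0.91 (SE 0.17, 95% interval 0.47 to 1.34, limma adjusted p = 0.322). Its unadjusted p from limma, 0.00292, ranked 94 among all genes tested. The 4 differences between single libraries, each labelled mutant minus each labelled WT, were all positive and lay between 0.78 and 1.03 on the log2 scale. DESeq2 on the recovered reads called path, with an adjusted p of 0.0166, and edgeR did not, with an adjusted p of 0.348. Over the same settings the adjusted p of path ranged from 0.0166 to 0.528.

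**Figure D2:**
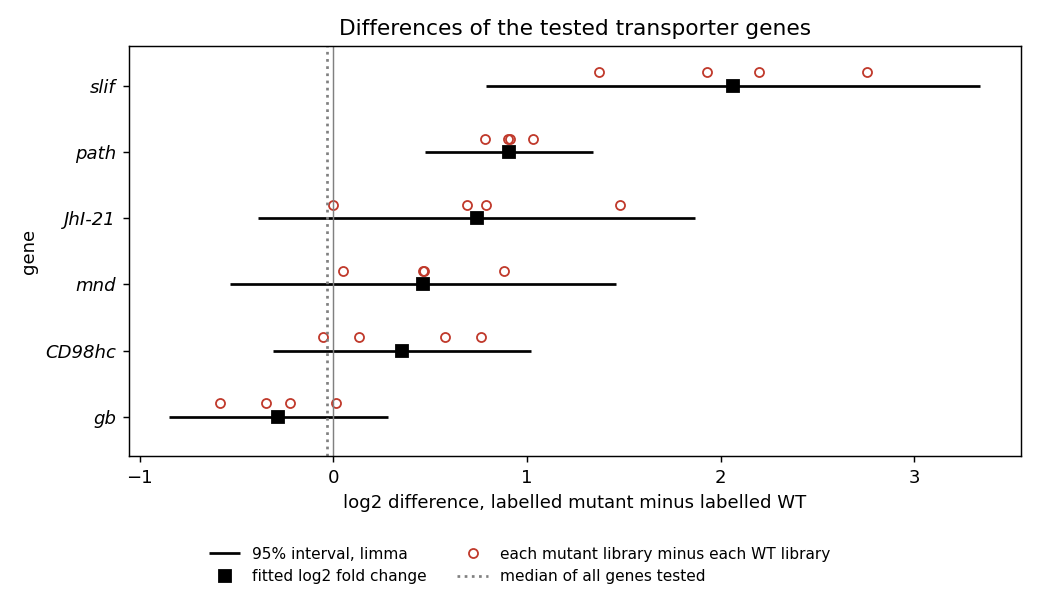
Fitted log2 fold change (squares) with its 95% interval from limma (lines) for the 6 tested genes, and above each line the 4 differences between single libraries (open circles), labelled mutant minus labelled WT. The intervals of slif, from 0.79 to 3.34, and path, from 0.47 to 1.34, lie above 0 before adjustment for the number of genes, and those of the other 4 genes take in 0.

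The heavy chain gene, CD98hc, gave less even values. It lies on the minus strand of 3R from 7974409 to 7978428 (FBgn0037533). Its normalized counts were 3389 and 2187 in mutant-labelled libraries and 2269 and 1995 in WT-labelled libraries. Mutant 1 stood above the other 3 libraries, whereas mutant 2 lay between the WT-labelled ones. The fitted log2 fold change was 0.36 (SE 0.26, 95% interval -0.31 to 1.02, limma adjusted p = 0.492). Without mutant 1 it was 0.04, and without mutant 2 it was 0.67, so the size of the difference rests on 1 library.

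Of the light chains, mnd and JhI-21 belong to the same branch of the SLC7 family. The mnd gene, named minidiscs after the small imaginal discs of its mutants, encodes a leucine transporter that acts in the fat body and in insulin-producing cells. It lies on the plus strand of 3L from 14985100 to 14991667 (FBgn0002778), with normalized counts of 77.1 and 57.4 in mutant-labelled libraries and 41.4 and 55.5 in WT-labelled libraries. The groups did not overlap, but mutant 2 and WT 2 were separated by only 0.05 on the log2 scale. The log2 fold change of mnd was 0.46 (SE 0.39, 95% interval -0.53 to 1.46, limma adjusted p = 0.544), and it was 0.26 without mutant 1 and also without WT 1.

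JhI-21, for juvenile hormone inducible, is a leucine carrier that also acts in insulin-producing cells. It lies on the minus strand of 2L from 12051755 to 12056042 (FBgn0028425). Its normalized counts were 153 and 88.17 in mutant-labelled libraries, against 88.22 and 54.3 in WT-labelled libraries. Mutant 2 and WT 1 had nearly the same value, which was enough for the groups to overlap. The log2 fold change of JhI-21 was 0.74 (SE 0.44, 95% interval -0.39 to 1.87, limma adjusted p = 0.418). It was 0.34 without mutant 1, 0.39 without WT 2 and 1.14 without mutant 2. The exons of JhI-21 share 295 bp with PLCXD (CG14945) on the opposite strand. The library kit keeps the strand, but the strand setting of the counting is not given in the sources used here. CG14945 had normalized counts of 109 and 118 in mutant-labelled libraries and 123 and 49.4 in WT-labelled libraries, and its part in the count of JhI-21 was not tested.

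The gene gb, or genderblind, encodes a glial light chain that exchanges cystine for glutamate and so sets extracellular glutamate. It was the only one of the 6 with a negative log2 fold change. It lies on the minus strand of 3R from 27108467 to 27112270 (FBgn0039487), with normalized counts of 781 and 608 in mutant-labelled libraries and 773 and 912 in WT-labelled libraries. Mutant 1 lay between the WT-labelled ones, and mutant 2 was the lowest of the 4 libraries. Fitted over the 4 libraries, gb had a log2 fold change of -0.28 (SE 0.22, 95% interval -0.85 to 0.28, limma adjusted p = 0.514). Without mutant 2 it was -0.10, and without mutant 1 it was -0.47. The exons of gb share 865 bp with the antisense gene CR45209, which was not analysed here.

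NAAT1, a sodium-coupled carrier of the SLC6 family that absorbs essential amino acids in the gut, was close to the limit of detection. It lies on the minus strand of the X chromosome from 5405238 to 5410849 (FBgn0029762). Its values rest on 3 and 5 reads in mutant-labelled libraries and on 4 and 5 reads in WT-labelled libraries. Summed over a group these were 8 reads (exact 95% Poisson interval 3.45 to 15.8) in mutant-labelled libraries and 9 reads (4.12 to 17.1) in WT-labelled libraries, intervals that cover counting error only. CG9413 (FBgn0030574), now called sbm or sobremesa and a further light chain of the SLC7 family, lies on the minus strand of the X chromosome from 14584733 to 14602580. It had 4 and 8 reads in mutant-labelled libraries and 9 and 5 reads in WT-labelled libraries. A difference in either gene was not detectable at this depth.

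Levels of different genes were compared as normalized counts per kb of annotated exon. On this scale CD98hc stood at 1176 ± 359 in mutant-labelled libraries and 899 ± 82 in WT-labelled libraries (SD, n = 2 each). The level per kb of path was 1049 ± 61 in mutant-labelled libraries, and its libraries overlapped with those of CD98hc. In the libraries labelled WT path stood at 560 ± 35 per kb, below CD98hc in both libraries. The level of gb was 264 ± 47 per kb in mutant-labelled libraries and 320 ± 37 per kb in WT-labelled libraries, below path in every library. JhI-21 followed at 51.0 ± 19.4 per kb in mutant-labelled libraries and 30.1 ± 10.1 per kb in WT-labelled libraries. The level per kb of mnd was 26.4 ± 5.5 in mutant-labelled libraries and 19.0 ± 3.9 in WT-labelled libraries. The level of slif, 25.5 ± 6.9 per kb, overlapped with that of mnd in mutant-labelled libraries. In the libraries labelled WT it was 5.98 ± 2.49 per kb, below mnd in both. NAAT1 was lowest, at 1.57 ± 0.69 per kb in mutant-labelled libraries and 1.94 ± 0.69 per kb in WT-labelled libraries. Averaged over the groups, CD98hc and path were above 92.9% and 91.2% of all genes tested with a known exon length, gb was above 79.3%, and JhI-21, mnd and slif were above 28.9%, 17.8% and 12.5% of them.

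**Figure D3:**
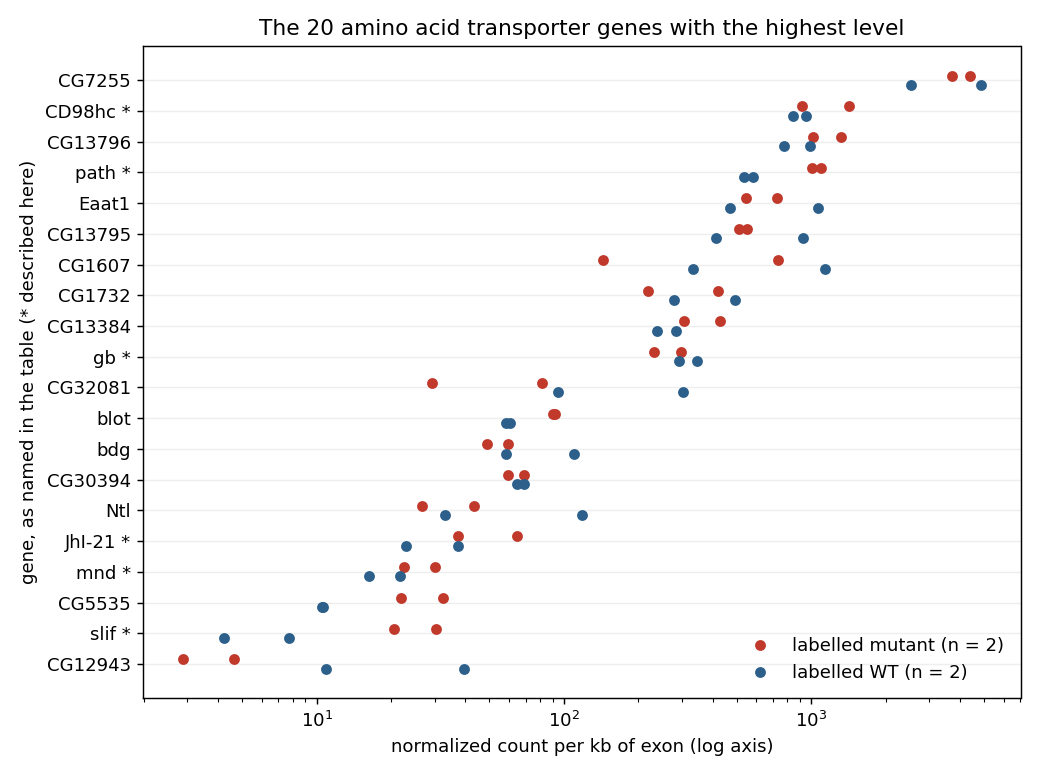
Normalized count per kb of exon (log axis) for the 20 highest of 42 genes listed by carrier family, the heavy chain gene CD98hc included. Each gene has 1 row, with the libraries labelled mutant in red above those labelled WT in blue (2 each), and asterisks mark genes described here. Ranked by the mean of both groups, CD98hc and path are at 2 and 4, below CG7255 at 1, although path is at 7 by the WT-labelled libraries alone, and the red points of slif, at 20.5 and 30.4 per kb, reach those of mnd.

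Since CD98hc pairs with light chains, its level per kb was set against the summed level of 3 of them, gb, JhI-21 and mnd, a ratio chosen after their values were seen. The ratio was 3.65 and 3.17 in mutant-labelled libraries and 2.76 and 2.15 in WT-labelled libraries. It was higher in both libraries labelled mutant, although CD98hc alone overlapped between the groups. Of the sum of these 3 genes, gb made up 75.7% and 79.4% in mutant-labelled libraries and 84.6% and 88.6% in WT-labelled libraries. The sum leaves out CG1607, a further gene of the light-chain branch, with a level of 733 and 144 per kb in mutant-labelled libraries and 1138 and 332 per kb in WT-labelled libraries. CG1607 was above gb in mutant 1 and WT 1. With CG1607 added to the sum, the ratio was 1.27 and 2.12 in mutant-labelled libraries and 0.64 and 1.16 in WT-labelled libraries. The share of gb was then 26.4% and 53.1% in mutant-labelled libraries and 19.8% and 47.9% in WT-labelled libraries, which overlap. These ratios are a description, and no test was made of them.

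**Figure D4:**
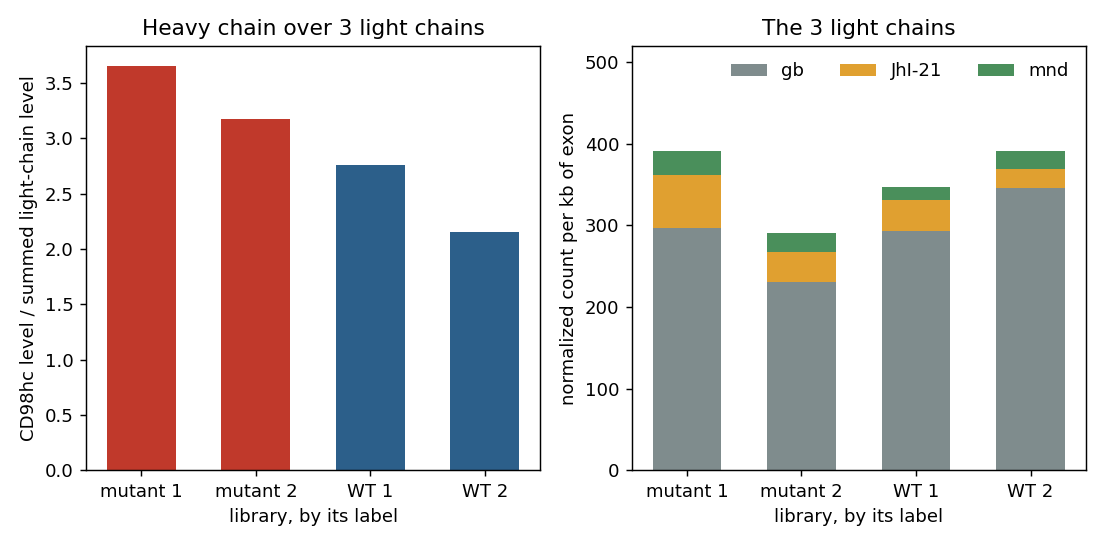
Left, level of CD98hc per kb of exon divided by the summed level of 3 light chains (gb, JhI-21 and mnd, without CG1607) in each library. Right, the light-chain levels stacked, in normalized counts per kb. The ratio is 3.65 and 3.17 in mutant-labelled libraries and 2.76 and 2.15 in those labelled WT, and gb makes up the largest part of every stack.

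Other genes of amino acid carrier families were taken from lists drawn up by family, with earlier results of these data known. What each of them carries was not tested. Of 34 such genes 22 passed the filter, and limma called none of them after adjustment. At an unadjusted limma p under 0.05, 2 of the 22 were higher and 2 lower, against 6.89% and 7.24% of all genes tested. DESeq2 called 0 of them, but gave no adjusted p for CG7888, CG12943, CG13793, ine and Eaat2, among others. Both libraries labelled mutant were above both labelled WT for 10 of the 22 and below them for 3, against 26.2% and 27.9% of all genes tested. Their median log2 fold change was 0.30, with 12 values above 0 and 10 below, but it was 0.02 without WT 1, and -0.19 over the 12 of them averaging 50 normalized counts or more.

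Among 4 tested SLC7 genes besides the ones above, CG7255, a relative of slif, had the highest level of the 42 genes ranked, at 4044 per kb in mutant-labelled libraries and 3696 per kb in WT-labelled libraries. Its values overlapped between the groups. CG5535, another relative of slif, had normalized counts of 74.4 and 50.2 in mutant-labelled libraries and 24.3 and 24.1 in WT-labelled libraries, with a log2 fold change of 1.30 (SE 0.43, limma adjusted p = 0.347). For CG13248, also of the cationic branch, the counts were 25.1 and 63.6 in mutant-labelled libraries and 16.2 and 18.1 in WT-labelled libraries, a log2 fold change of 1.18 that was 0.53 without mutant 2 and 1.83 without mutant 1. Thus slif, CG5535 and CG13248 were higher in both libraries labelled mutant, as were 26.2% of all genes tested, and CG7255 overlapped. CG1607, of the light-chain branch, varied widely within each label, with 2333 and 458 in mutant-labelled libraries and 3621 and 1055 in WT-labelled libraries.

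The relatives of path in the SLC36 family went both ways. Of 5 tested genes 3 were higher and 2 lower in both libraries labelled mutant, against 26.2% and 27.9% of all genes tested. CG7888 had normalized counts of 26.0 and 34.9 in mutant-labelled libraries and 14.4 and 15.7 in WT-labelled libraries, a log2 fold change of 0.96. CG12943, known as polyphemus, had 4.48 and 7.18 in mutant-labelled libraries and 61.2 and 16.9 in WT-labelled libraries, a log2 fold change of -2.32 (SE 0.79, limma adjusted p = 0.347). For CG32081 the counts were 45.7 and 128 in mutant-labelled libraries, against 474 and 148 in WT-labelled libraries. WT 1 was the highest library for CG12943 and for CG32081, and mutant 2 and WT 2 lay close together for the second of these genes. Without WT 1 the log2 fold change was -1.42 for CG12943 and -0.94 for CG32081.

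Of the SLC6 genes, the family of NAAT1, 10 were tested, with 5 higher in both libraries labelled mutant and 5 overlapping. Over all genes tested 26.2% were higher in both. The most even of them was blot, or bloated tubules, which had normalized counts of 417 and 424 in mutant-labelled libraries and 269 and 280 in WT-labelled libraries. Its log2 fold change was 0.61 (SE 0.20, limma adjusted p = 0.347). The counts of ine, or inebriated, were lower, at 35.8 and 16.4 in mutant-labelled libraries and 10.8 and 8.44 in WT-labelled libraries, and its log2 fold change was 1.26, or 0.72 without mutant 1. CG13793 had 20.6 and 16.4 in mutant-labelled libraries and 4.50 and 13.3 in WT-labelled libraries, a log2 fold change of 1.13 that was 0.44 without WT 1. In the SLC38 and SLC1 families 3 genes were tested, and Eaat2, an aspartate and taurine transporter, was lower in both libraries labelled mutant, with 7.17 and 13.3, against 33.3 and 27.7 in WT-labelled libraries. Eaat2 had a fitted value of -1.54 on the log2 scale (SE 0.56, limma adjusted p = 0.347).

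**Figure D5:**
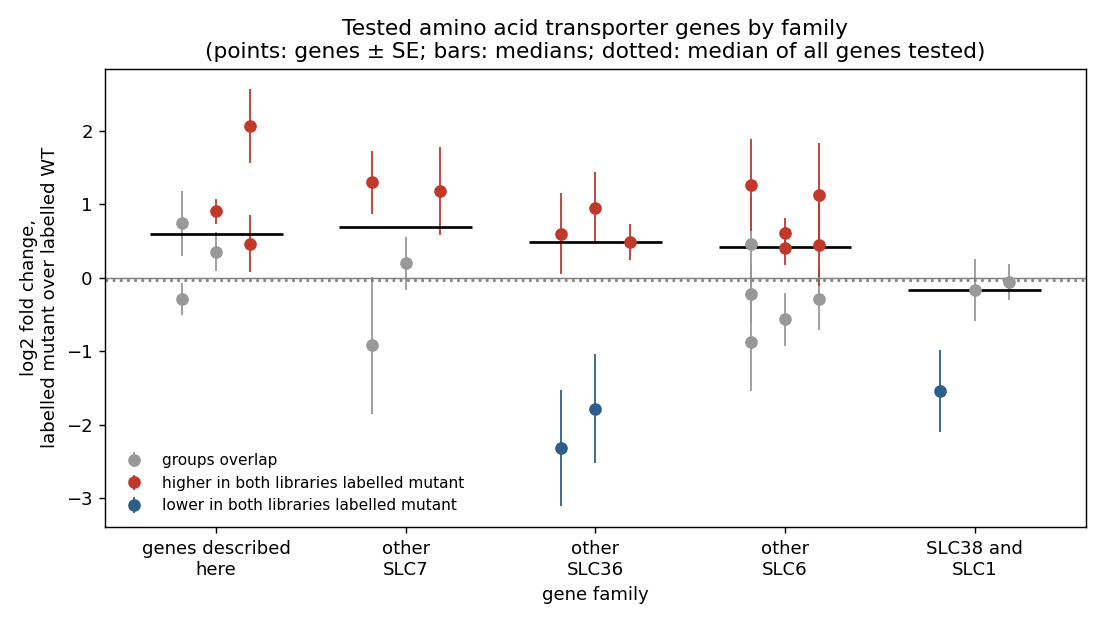
Log2 fold change ± standard error from limma of the tested genes of the carrier families, coloured by whether both libraries labelled mutant lie above (red) or below (blue) both labelled WT or overlap with them (grey), with bars at the medians. The 6 genes described here have a median of 0.60 (0.30 without mutant 1), and values reach from -2.32 for CG12943 to 2.06 for slif.

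Amino acids that enter the cell are sensed by TORC1. Of 15 listed genes of that pathway 14 were matched and tested, and limma called none of them. At an unadjusted limma p under 0.05 there were 0, against 6.89% higher and 7.24% lower of all genes tested, and DESeq2 called 0. In 5 of them both libraries labelled mutant were above both labelled WT, and in 2 they were below. Over all genes tested these shares were 26.2% and 27.9%. The median log2 fold change was 0.27, but 0.11 without WT 1 and 0.42 without mutant 2. CG9104, or Nprl2, and CG8783, or Nprl3, are both subunits of the GATOR1 complex, which holds TORC1 back when amino acids are short. CG9104 had normalized counts of 181 and 159 in mutant-labelled libraries and 97.2 and 144 in WT-labelled libraries, a log2 fold change of 0.52 (SE 0.32). CG8783 had 130 and 129 in mutant-labelled libraries and 181 and 166 in WT-labelled libraries, a log2 fold change of -0.42 (SE 0.26). The subunits thus lay on opposite sides of 0, neither past the threshold. Lst8, a subunit of TORC1 itself, had a log2 fold change of 0.45. Without WT 1 the value was 0.24 for both CG9104 and Lst8.

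A shortage of amino acids and stress of the ER are both passed on through eIF2alpha to crc. Of the 6 listed genes of this response, all tested, 5 were higher in both libraries labelled mutant, against 26.2% of all genes tested, and crc overlapped. For eIF-2alpha mutant 1 and WT 2 were separated by only 0.02 on the log2 scale, and for Gcn2 mutant 2 and WT 2 by 0.09. Limma called none of the 6, with 1 higher at an unadjusted p under 0.05, against 6.89% of all genes tested. DESeq2 called 1 higher, trbl, against 2.02% of the genes that it kept. The pseudokinase gene trbl, or tribbles, had normalized counts of 980 and 767 in mutant-labelled libraries and 335 and 297 in WT-labelled libraries, a log2 fold change of 1.46 (SE 0.22, adjusted p = 0.250 in limma and 6.55e-04 in DESeq2). Over the same settings as for slif the adjusted p of trbl ranged from 6.55e-04 in DESeq2 to 0.528 in limma with the replicate number as a block. PEK and Thor, which encodes the translation inhibitor 4E-BP, had smaller log2 fold changes, of 0.36 and 0.35, which were 0.18 without mutant 1 for PEK and 0.16 without WT 1 for Thor. PEK had normalized counts of 1119 and 878 in mutant-labelled libraries and 744 and 804 in WT-labelled libraries. Thor had 7879 and 7345 in mutant-labelled libraries and 5269 and 6792 in WT-labelled libraries. Thor is also on the TORC1 list and is counted among the 5 higher genes there. The counts of crc were 12939 and 11637 in mutant-labelled libraries, against 10267 and 11832 in WT-labelled libraries.

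The genes with values most like those of slif were found by the Euclidean distance of log2 values, centred on each gene's mean over the 4 libraries. The 3 closest of all genes tested were CG42686, now wide awake, CG8147, an alkaline phosphatase gene, and Ssk, or Snakeskin, a protein of the septate junctions of the midgut. Their distances were 0.20, 0.24 and 0.24. CG42686 had normalized counts of 43.0 and 53.3 in mutant-labelled libraries and 14.4 and 8.44 in WT-labelled libraries. For CG8147 they were 66.3 and 93.3 in mutant-labelled libraries and 21.6 and 10.9 in WT-labelled libraries. Ssk had normalized counts of 45.7 and 85.1 in mutant-labelled libraries and 18.9 and 10.9 in WT-labelled libraries. The distances are a description over 4 libraries and carry no test.

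In RNA of whole larvae, more cells of a type and more RNA per cell cannot be told apart. Myo31DF, a brush border myosin of gut enterocytes, had normalized counts of 624 and 618 in mutant-labelled libraries and 329 and 363 in WT-labelled libraries, and did not overlap between the groups. Over all 7 enterocyte markers the sums were 681 and 702 in mutant-labelled libraries and 4310 and 426 in WT-labelled libraries. Of the 4 markers tested, 2 were higher and 2 lower in both libraries labelled mutant, against 26.2% and 27.9% of all genes tested. The lower ones were the digestive proteases Jon65Aiv, with 3.58 and 13.3 in mutant-labelled libraries and 2616 and 22.9 in WT-labelled libraries, and Jon65Aiii, with 3.58 and 8.20 in mutant-labelled libraries and 1333 and 16.9 in WT-labelled libraries. DESeq2 called both lower, with an adjusted p of 0.0389 for Jon65Aiv and 0.0395 for Jon65Aiii. Of all genes that it kept it called 1.66% lower. WT 1 stood far above the other libraries for both proteases. The defining trypsin genes alphaTry and betaTry were at 0 in mutant 2 and WT 2 and at no more than 11.7 in any library. For 5 of 7 muscle markers both mutant-labelled libraries were higher, against 26.2% of all genes tested. DESeq2 called 1 of the 7 higher, against 2.02% of the genes that it kept. The sums over all 7 were 570 and 733 in mutant-labelled libraries and 339 and 416 in WT-labelled libraries. All 6 spermatocyte markers were lower in both mutant-labelled libraries, against 27.9% of all genes tested. Their sums were 68.1 and 191 in mutant-labelled libraries and 1174 and 433 in WT-labelled libraries. DESeq2 called 3 of the 6 lower, against 1.66% of the genes that it kept. The sums overlapped between the groups for 6 fat body markers, with 7802790 and 11114400 in mutant-labelled libraries and 7002080 and 10710800 in WT-labelled libraries. They also overlapped for 7 markers of neurons and glia, with 10207 and 10604 in mutant-labelled libraries and 8737 and 11219 in WT-labelled libraries, most of each sum from Syt1. Of the 5 tested, 3 were higher in both libraries labelled mutant, against 26.2% of all genes tested, and 2 overlapped. For 6 hemocyte markers the sums were 2353 and 2808 in mutant-labelled libraries and 2571 and 3375 in WT-labelled libraries, most of each sum from Hml. Of the 6, 1 was higher and 2 lower in both libraries labelled mutant, against 26.2% and 27.9% of all genes tested. The other 3, Hml among them, overlapped. Both prophenoloxidase genes on that list were lower in both libraries labelled mutant, proPO45 (PPO2) with 157 and 223 in mutant-labelled libraries and 648 and 538 in WT-labelled libraries, and proPO-A1 (PPO1) with 101 and 159 in mutant-labelled libraries and 275 and 304 in WT-labelled libraries. DESeq2 called 1 of the 6 lower, proPO45, with an adjusted p of 0.00102. The phagocytosis receptor gene nimC1 was higher in both, with 104 and 70.7 in mutant-labelled libraries and 24.3 and 50.7 in WT-labelled libraries. The part of these markers in the values of the transporter genes was not tested.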

How the data were processed

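RNA of whole larvae was sequenced from 2 extractions a genotype. The authors made stranded total RNA libraries depleted of ribosomal RNA, aligned paired reads to dm6 with TopHat 2.1.1, counted them per gene with HTSeq 0.6.1 and scaled with DESeq2. What they deposited is a signal, the count per gene over a size factor particular to each library, called the normalized count here. All values (100%) were whole multiples of 1 step per library within 0.01 reads, so reads were recovered. At 3 reads, the floor covers counting error only, since reads carry no molecular identifiers.

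Gene names were matched, with their letter case, to Ensembl gene models on dm6 coordinates: 11817 exactly, 3239 by synonym and 284 not. Exonic length is the union of annotated exons. Limma (3.58.1, R 4.3.3; eBayes with an intensity trend) was fitted on log2(normalized count + 1) for genes averaging 10 or more, at a threshold of 0.05 after Benjamini-Hochberg adjustment. With 2 libraries against 2, an exact two-sided permutation test cannot give a p under 0.333. Alternatives were other pseudocounts, filters, scalings and eBayes without trend, 1 library left out, the replicate number as a block, and edgeR (4.0.16) and DESeq2 (1.42.0) on recovered reads.

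The members and the gene lists were chosen with earlier results of these data known. Genes named were all members, Xbp1, the 3 genes nearest to slif and up to 2 genes per marker list. From each other list came up to 3 genes, those with the largest change among genes whose groups did not overlap. CG7255, CG1607, crc, eIF-2alpha, Gcn2, CG14945, CG9413, proPO-A1, nimC1, Jon65Aiii, alphaTry and betaTry were named after their values were seen. No sequences are shown, since none were used here.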

Additional observations from a re-analysis of the deposited data

How the results depend on the processing

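For the 6 tested transporter genes, 98 alternative values kept their direction and did not pass the threshold. The other 3 kept their direction and passed it: path at 0.91 with DESeq2 on the recovered reads, and path at 0.91 and slif at 2.06 with the crossed block (mutant 1 with WT 2 and mutant 2 with WT 1). The 98 include slif in DESeq2 with the replicate block, which gave it no adjusted p. With 1 library left out, log2 fold changes ranged from 0.84 to 0.97 for path, from 1.65 to 2.48 for slif, from 0.26 to 0.67 for mnd, from 0.34 to 1.14 for JhI-21, from 0.04 to 0.67 for CD98hc and from -0.47 to -0.10 for gb, and from -0.29 to 0.12 for Xbp1, which changed sign without WT 2. Quantile normalization moved the median of all genes by 0.10 on the log2 scale. With a mean of at least 50, slif was not tested.

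Against 1 gene higher and 0 lower, there were 3 higher with no filter, 10 higher and 4 lower after scaling all libraries to 1 total, 12 higher and 4 lower after quantile normalization, and 0 higher when eBayes had no trend (680 by unadjusted p). DESeq2 on the recovered reads called 179 higher and 147 lower, and 1 gene, trbl, in the amino acid response list. With 1 library left out the calls ranged from 0 to 39 higher and from 0 to 131 lower, the largest numbers without mutant 2, where the lone library is assumed to vary like the other group. The cause was not tested.

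A limma fit with the replicate block called 0 genes higher (500 by unadjusted p) and 0 lower (361 by unadjusted p), and its adjusted p was 0.528 for path and for slif. Same-numbered libraries deviated from their group means with a correlation of -0.443 across genes. The next settings were chosen after seeing the data. DESeq2 with the replicate block called 92 higher and 76 lower of the 7853 genes that it kept, with 1 gene of the amino acid response list. Its adjusted p for path was 0.0831, and it gave none for slif. The crossed block called 390 higher and 1410 lower of the 10500 genes tested, against 1 and 0 in the main fit. Among its calls were 1 gene of the other SLC7 genes, 2 of the other SLC36 genes and 1 of the amino acid response list.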
